A study of Mus musculus with 3 samples.

Results

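The genes described here make the lysosome acidic and fill it with enzymes. They are 35 genes given as a list of symbols and found by symbol among the 31053 mouse genes counted in each of the 3 libraries. The list holds 5 subunits of the V0 sector of the proton pump, 8 of its V1 sector and 2 accessory subunits. It goes on with 4 proteins of the lysosomal membrane, 10 hydrolases, 3 lumenal proteins that are not enzymes and 3 transcription factors.

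The vacuolar ATPase acidifies the lysosome. Its V1 sector faces the cytosol and splits ATP, and its V0 sector sits in the membrane and passes protons inward. The acid hydrolases of the lumen take apart glycans, lipids and proteins delivered by endocytosis, phagocytosis and autophagy, and macrophages are known for a large lysosomal system. TFEB, TFEC and MITF are related transcription factors, of which TFEB is known to raise many lysosomal genes through short sites with the core CACGTG.

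C57/BL6 mice received human split-thickness skin beneath their own skin, and the grafts of 5 mice were explanted on day 14 and sequenced as 1 pooled droplet library (hSTSG). Bone marrow cells of C57/BL6 mice were grown with GM-CSF for 7 days and then left untreated (Co-Mac) or given VD3, the active form of vitamin D, at 1e-06 M for 24 hours (VD-Mac), again 1 library each. The labels give no age or sex of the mice and no map from cells to mice. The features are mouse genes; whether RNA of the human skin added to their counts was not tested. The library totals were 136905324 gene UMIs in 7866 barcodes for Co-Mac, 124731240 in 9794 for VD-Mac and 24472168 in 2644 for hSTSG, where a UMI stands for 1 captured RNA molecule.

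Kept were barcodes with 300 genes or more, UMIs under 100000 and a mitochondrial share under 10%: 7257 of Co-Mac, 8825 of VD-Mac and 2144 of hSTSG. Of the kept barcodes, 15 were shared by Co-Mac and VD-Mac, 3 by Co-Mac and hSTSG and 6 by VD-Mac and hSTSG. Doublets were kept. Levels are CPM, that is UMIs of a gene per 1e+06 gene UMIs, summed over the cells of a group. Intervals are exact at 95% (Poisson for levels, conditional binomial for ratios) and stand in parentheses. They cover counting error only. Each condition has a single library, the graft cells were not split by hashtag, and no replicate check and no test was made.

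Cells were clustered with the 35 genes and the companion genes named further on left out of the variable genes. A graft cluster of 336 cells (15.7% of kept graft cells, 14.2 to 17.3%, exact binomial) took its name from a set of 7 markers led by *Trem2* and *Spp1*, and is called graft Trem2 macrophages. It was led by *Gpnmb*, *Mmp12*, *Spp1* and *Rnf128*, and also by *Atp6v0d2* and *Acp5*, which belong to the companion lists. *Trem2* itself had 635 CPM (616 to 654) in these cells, 72.5 (68.4 to 76.8) in all other graft cells, 278 (271 to 284) in macrophage-like cells of Co-Mac and 791 (778 to 804) in those of VD-Mac. The summed level of the 7 markers was 26677 CPM in graft Trem2 macrophages, 3014 in all other graft cells, 10586 in macrophage-like cells of Co-Mac and 3949 in those of VD-Mac, with *Mmp12* the most abundant in the Co-Mac cells and *Spp1* in the others. Since the cluster was named from these markers, its own sum describes the name and is not a finding. The other monocyte lineage cells of the graft were 472 monocyte-like cells, 156 macrophages named from a *Cd163* set and 148 cells called DC-like, 776 cells in all. The DC-like cluster was led by the immunoglobulin genes *Igkc* and *Ighm* beside *Ccr7* and *Flt3*, and the summed level of 6 B cell and plasma cell markers in it, 14961 CPM (*Igkc* most abundant), was above that of 8 DC markers, 2056 CPM (*Ccr7* most abundant), so that the name covers it in part. The remaining named classes were granulocyte-like (517 cells), T/NK-like (301), fibroblast-like (139), endothelial-like (25) and mast cell- or basophil-like (14), and 36 cells were left unnamed.

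In the cultures, macrophage-like cells were 1043 cells of Co-Mac and 1128 of VD-Mac, and different clusters held them. All of the Co-Mac cells lay in a cluster led by *Mmp12*, *Rnf128* and *Fn1*, while 1124 of the VD-Mac cells lay in a cluster led by *Ccl4*, *Gdf15* and *Ms4a7*, with no cell of Co-Mac. A cluster made mostly of 1 library may be that library and not a cell type. The summed level of 8 macrophage markers was 2069 CPM in the Co-Mac cells and 2657 in the VD-Mac cells, with *C1qb* the most abundant in both, and 8989 CPM in graft Trem2 macrophages. The summed level of 6 monocyte markers was 1146 CPM in the Co-Mac cells (*Ccr2* most abundant) and 4045 CPM in the VD-Mac cells (*Ifitm3* most abundant), so that in VD-Mac it was above the macrophage sum and the name covers these cells in part. Over all kept cells it was 883 CPM in Co-Mac and 1122 CPM in VD-Mac, where granulocyte and DC genes were also present.

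The graft Trem2 macrophages were set against 3 groups. A gene was called higher or lower at a ratio of at least 1.5 (0.58 on the log2 scale) with at least 10 CPM in the higher group, and genes that reach 10 CPM in either group are the genes tested. Against all other graft cells, 17 of the 35 members were higher and 0 were lower, where 10.8% of the 8346 genes tested were higher and 27.8% lower. Against the other monocyte lineage cells of the graft, 7 of 34 tested members were higher and 0 lower, where 9.24% of 7648 genes were higher and 21.0% lower. Against untreated macrophage-like cells, 21 of 35 were higher and 2 lower, where 25.2% of 7850 genes were higher and 29.4% lower. The 3 comparisons share the Trem2 macrophages and are not independent of each other.

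The pump and the hydrolases were also read apart. Against all other graft cells the median log2 ratio was 0.43 over the 15 pump genes, 0.80 over the 10 hydrolases and -0.18 over all genes tested. Against the other lineage cells these medians were -0.05, 0.44 and -0.17, and against untreated macrophage-like cells 0.58, 1.17 and -0.11. Called higher were 6, 2 and 7 of the 15 pump genes, and 6, 3 and 8 of the 10 hydrolases, beside 10.8%, 9.24% and 25.2% of all genes tested. The 2 pump genes against other lineage cells were close to that share. Their calls (*Atp6v0e* and *Atp6v1e1*) ended under other settings. Single genes of both lists overlapped: against all other graft cells the pump genes ran from -0.02 to 0.91 and the hydrolases from -0.14 to 1.26. The difference between both lists was not tested. The pump median against other lineage cells turned to 0.11 with the median of all genes at 0.

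Since the median of all genes lay below 0, each comparison was also scaled to put it at 0. The members called higher then came to 20 of 35 against all other graft cells (16.6% of all genes higher and 22.2% lower), 11 of 34 against the other lineage cells (13.5% and 14.4%) and 23 of 35 against untreated macrophage-like cells (28.2% and 25.6%). A mean over cells, in which each cell weighs the same, gave 16 members higher and 3 lower against all other graft cells (20.1% and 26.2%). Leaving the DC-like cluster out of the other lineage cells gave 4 higher and 2 lower (9.13% and 19.0%). Without cells over the 95th percentile of UMIs, 9 members were higher than in all other graft cells (9.27% of all genes). Against the other lineage cells 3 of 34 were then higher (9.15%). Resolution 0.8 gave 10 (9.10%) and 3 of 34 (8.46%), so that both counts of 3 were close to the shares of all genes. Of the 7 members higher against other lineage cells, *Mitf* and *Psap* kept that call under all settings tried. With lineage cells of at least 2 *Trem2* UMIs as the *Trem2* group, 6 of the 7 kept it. Of the members higher against all other graft cells, 9 kept the call without cells over the 95th percentile of UMIs. At resolution 0.8 the call was kept by 10, and with 10 principal components by 13. Over all settings, the number of members higher ran from 6 to 25, from 2 to 13 and from 15 to 29 in the 3 comparisons.

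Depth and RNA of other cell types differed between the groups. The median was 16010.5 UMIs per Trem2 macrophage, 5416 per other graft cell, 9415.5 per other lineage cell and 20354 per untreated macrophage-like cell. Mitochondrial genes took 3.49% of UMIs in Trem2 macrophages, 3.57% in all other graft cells, 4.001% in other lineage cells and 6.15% in untreated macrophage-like cells. With cells under 5% alone, 24 members were higher than in untreated macrophage-like cells and 2 lower (23.2% and 40.6% of all genes). All 8 granulocyte markers were found in Trem2 macrophages, with 306 CPM in sum (*S100a8* most abundant), against 11935 in all other graft cells and 389.8 in other lineage cells. All 6 fibroblast markers were found too, with 69.8 CPM in sum (*Col3a1* most abundant), against 13784 CPM in all other graft cells and 121 CPM in other lineage cells. Of 6 B cell and plasma cell markers, *Ms4a1* was at 0 in Trem2 macrophages and the sum was 33.7 CPM (*Igkc* most abundant), against 3958 CPM in other lineage cells. Of 7 T/NK markers, *Cd3d*, *Nkg7* and *Ncr1* were at 0 in Trem2 macrophages, and *Il7r* made up most of the sum of 208 CPM, against 445 in all other graft cells and 201 in other lineage cells. Of the 336 Trem2 macrophages, 312 carried 2 or more markers of other types, and the 24 others were too few for a comparison without such cells. The part of depth and of RNA from other cells in the results was not tested.

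**Figure D1:**
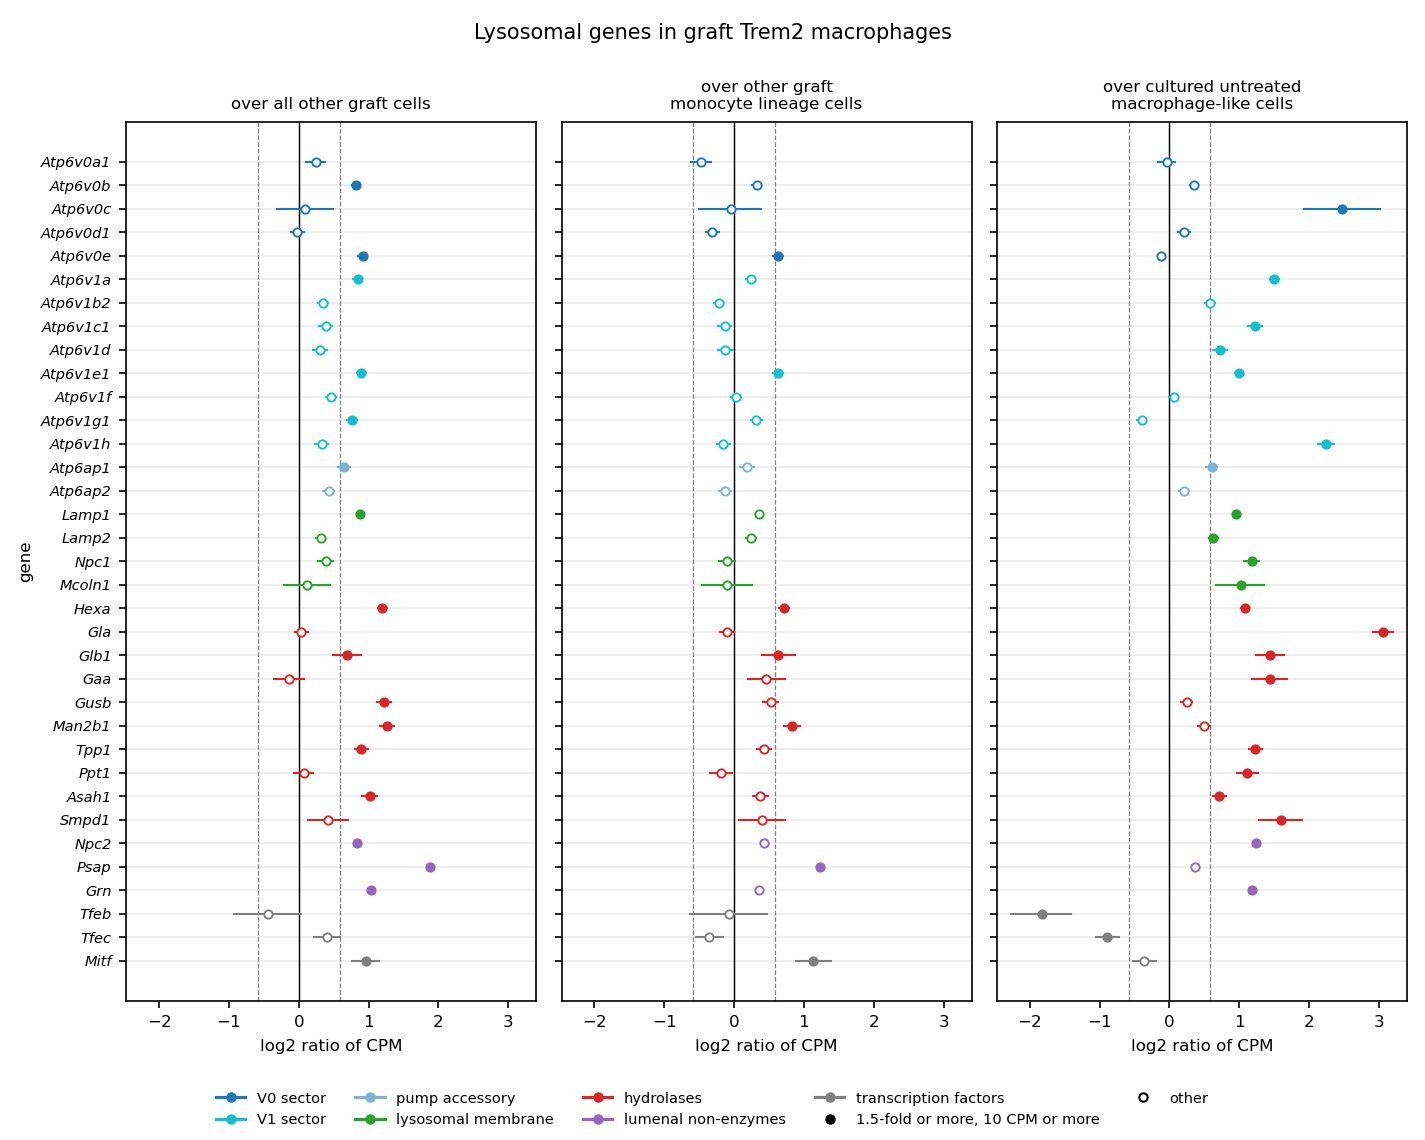
Log2 ratio of CPM (x axis) of each of the 35 genes (y axis) in graft Trem2 macrophages over 3 other groups of cells, with points coloured by role, lines for exact 95% intervals of counting error, dashed lines at a ratio of 1.5, and filled points for genes called higher or lower. The hydrolases lie mostly to the right of 0, Psap is farthest right in the first panel (1.87), and Gla in the third (3.06).

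Of the V0 sector, *Atp6v0e*, a small membrane subunit, had 574 CPM (556 to 593) in Trem2 macrophages, 305 (296 to 313) in all other graft cells, 372 (359 to 385) in other lineage cells and 623 (613 to 634) in untreated macrophage-like cells. Its log2 ratio was the highest of the sector against all other graft cells, at 0.91 (0.85 to 0.98), and against other lineage cells, at 0.63 (0.56 to 0.70) (not called with a mean over cells, 0.55), but the lowest against untreated macrophage-like cells, at -0.12 (-0.17 to -0.07). The gene was therefore higher than in its graft neighbours and slightly below the cultured cells. *Atp6v0b*, of the proteolipid ring that carries protons, was the other V0 gene called higher against all other graft cells, with 712 against 402 CPM.

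*Atp6v0c*, which also encodes a subunit of the ring, was the V0 gene with the highest ratio to untreated macrophage-like cells, 2.47 (1.93 to 3.02). It rested on low levels, 11.7 CPM (9.20 to 14.6) in Trem2 macrophages and 2.11 (1.56 to 2.79) in the cultured cells. Its level in all other graft cells, 11.0 CPM (9.41 to 12.7), was also far above the 1.34 (1.15 to 1.55) of all Co-Mac cells. Among the graft classes the level ran from 3.03 CPM (1.51 to 5.42) in fibroblast-like cells to 30.8 CPM (22.6 to 41.1) in granulocyte-like cells. The difference was thus not limited to Trem2 macrophages, and tissue, growth factor and library cannot be told apart in it. *Atp6v0d1*, which joins the rotor to the ring, was lowest against all other graft cells, with 210.3 CPM (199 to 222) in Trem2 macrophages, 213 (206 to 220.4) in other graft cells and a log2 ratio of -0.02 (-0.11 to 0.07). *Atp6v0a1*, the large subunit through which protons pass, was lowest against other lineage cells, with 104 CPM (96.2 to 112) against 144 (136 to 153) and a log2 ratio of -0.47 (-0.61 to -0.34), short of the 1.5-fold limit. Neither of these genes was called in any of the 3 comparisons.

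Of the V1 sector, *Atp6v1e1*, a stalk subunit, was highest against both sets of graft cells. It had 555 CPM (537 to 573) in Trem2 macrophages, 298 (290.1 to 307) in all other graft cells, 358 (345 to 371) in other lineage cells and 278 (271 to 285) in untreated macrophage-like cells. The log2 ratios were 0.89 (0.83 to 0.96), 0.63 (0.56 to 0.70) and 1.00 (0.94 to 1.06), so that it was called higher in each comparison. The call of *Atp6v1e1* against other lineage cells ended at resolution 0.8 (0.54), without cells over the 95th percentile of UMIs (0.55), with 30 principal components (0.45), without the DC-like cluster (0.40) and with a mean over cells (0.57). *Atp6v1a*, the subunit that splits ATP, and *Atp6v1g1*, a stalk subunit, were the other V1 genes called higher against all other graft cells, with 529 against 295 CPM and 404 against 237 CPM. The lowest there was *Atp6v1d*, a rotor subunit, with 191 CPM (180.1 to 201) against 154 (148 to 160.2) and a log2 ratio of 0.31 (0.21 to 0.41). Against other lineage cells the lowest was *Atp6v1b2*, the partner of the ATP-splitting subunit, with 369 CPM (355 to 384) against 428 (415 to 443) and a log2 ratio of -0.21 (-0.29 to -0.14). No V1 gene other than *Atp6v1e1* was called there.

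Of the 8 V1 genes, 5 were higher than in untreated macrophage-like cells (25.2% of all genes tested): *Atp6v1a*, *Atp6v1c1*, *Atp6v1d*, *Atp6v1e1* and *Atp6v1h*. *Atp6v1h*, a regulatory subunit, had the highest ratio, with 221 CPM (210.2 to 233) in Trem2 macrophages, 46.6 (43.9 to 49.5) in the cultured cells at a log2 ratio of 2.25 (2.13 to 2.36). As with *Atp6v0c*, the level in all other graft cells was high too, at 176 CPM against 34.2 CPM in all Co-Mac cells. The same held for *Atp6v1a* (295 against 120 CPM), *Atp6v1c1* (181 against 70.6), *Atp6v1d* (154 against 87.2) and *Atp6v1e1* (298 against 173). *Atp6v1g1* had the lowest ratio to untreated macrophage-like cells, with 404 CPM (389 to 420.1) against 533 (524 to 543) and a log2 ratio of -0.40 (-0.46 to -0.34). *Atp6v1b2* reached 0.58, just under the limit, and *Atp6v1f*, a rotor subunit, 0.06.

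The accessory subunits differed from each other. *Atp6ap1*, which helps assemble the V0 sector, had 253 CPM (241 to 265) in Trem2 macrophages, 161 (155 to 167) in all other graft cells, 223 (213 to 233) in other lineage cells and 166 (161 to 172) in untreated macrophage-like cells. Its log2 ratios were 0.65 (0.56 to 0.74), 0.18 (0.09 to 0.28) and 0.60 (0.52 to 0.69), with a call of higher in the first and the last. *Atp6ap2*, also known as the prorenin receptor, had 297, 221, 324 and 257 CPM in the same order, with log2 ratios of 0.43 (0.35 to 0.51), -0.13 (-0.21 to -0.04) and 0.21 (0.14 to 0.28) and no call.

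Of the lysosomal membrane proteins, *Lamp1*, a main glycoprotein of the membrane, was called higher against all other graft cells, where it was alone among the 4, and had the highest ratio against other lineage cells. Its level was 1352 CPM (1324 to 1380.3) in Trem2 macrophages, 738 (725 to 752) in all other graft cells, 1055 (1034 to 1078) in other lineage cells and 701 (690 to 712) in untreated macrophage-like cells. The log2 ratios were 0.87 (0.83 to 0.91), 0.36 (0.31 to 0.40) and 0.95 (0.91 to 0.99). *Mcoln1*, a calcium channel of the membrane, was lowest against both sets of graft cells, with 17.4 CPM (14.3 to 20.9), 15.9 (14.0 to 18.0) and 18.6 (15.8 to 21.8) and log2 ratios of 0.13 (-0.21 to 0.45) and -0.10 (-0.46 to 0.26), both of which span 0. All 4 were called higher than in untreated macrophage-like cells (25.2% of all genes tested). *Npc1*, which exports cholesterol, was highest with 165 CPM (155 to 175) against 72.9 (69.5 to 76.5) at a log2 ratio of 1.18 (1.06 to 1.29), and *Lamp2*, needed for autophagy, was lowest with 435 against 282 CPM and 0.63 (0.56 to 0.69). In all other graft cells these genes also lay above all Co-Mac cells. The levels were 738 and 569 CPM for *Lamp1*, 350 and 177 for *Lamp2*, 126 and 46.4 for *Npc1* and 15.9 and 7.26 for *Mcoln1*.

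Among the hydrolases, *Man2b1*, the lysosomal alpha-mannosidase, had the highest ratio against both sets of graft cells. It stood at 241 CPM (229 to 253) in Trem2 macrophages, 100.4 (95.5 to 105) in all other graft cells, 135 (128 to 143) in other lineage cells and 171 (165 to 176) in untreated macrophage-like cells. The log2 ratios were 1.26 (1.16 to 1.36), 0.83 (0.72 to 0.94) and 0.50 (0.41 to 0.58), the last below the limit. *Hexa*, needed to break down gangliosides, had 589.7 CPM (571 to 609), 257 (249 to 265), 361 (348 to 374) and 278 (271 to 285), and was called higher in each comparison. *Glb1*, the lysosomal beta-galactosidase, was the other hydrolase called higher in each, with 52.9, 32.7, 34.0 and 19.5 CPM. With other lineage cells, however, the log2 ratios of 0.71 for *Hexa* and 0.63 for *Glb1* fell to 0.0906 and -0.0325 with clusters at resolution 0.8 and to 0.15 and 0.03 without cells over the 95th percentile of UMIs, and both settings ended the call of *Man2b1* too (0.42 and 0.33). The calls of *Hexa* and *Glb1* also ended with 10 or 30 principal components, without the DC-like cluster and with 300 UMIs in place of genes as the filter. *Glb1* shares an exon stretch on the same strand with *Tmppe*, so that some UMIs could belong to either gene.

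*Gusb* (beta-glucuronidase), *Tpp1* (a tripeptidyl peptidase) and *Asah1* (acid ceramidase) were also higher against all other graft cells, with log2 ratios of 1.22, 0.90 and 1.01. Of those, none was called against other lineage cells (0.52, 0.43 and 0.38). *Gaa*, the acid alpha-glucosidase, was lowest against all other graft cells, with 37.5 CPM (32.9 to 42.5) against 41.2 (38.1 to 44.5) and a log2 ratio of -0.14 (-0.35 to 0.08); its level was highest in fibroblast-like cells, at 110.4 CPM. *Ppt1*, which removes fatty acids from proteins, was lowest against other lineage cells, with 89.3 CPM (82.2 to 96.9) against 101 (94.7 to 108) and -0.18 (-0.34 to -0.03). *Smpd1*, acid sphingomyelinase, was low throughout, with 24.3 CPM in Trem2 macrophages, 18.1 in all other graft cells and 18.4 in other lineage cells, and was called in neither comparison.

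In the comparison with untreated macrophage-like cells, 8 of the 10 hydrolases were higher (25.2% of all genes tested), all but *Gusb* and *Man2b1*. *Gla*, alpha-galactosidase, had the highest ratio of all 35 members there, with 201 CPM (191 to 213) in Trem2 macrophages, 24.2 (22.3 to 26.3) in the cultured cells and a log2 ratio of 3.06 (2.91 to 3.20). Within the graft, however, *Gla* was not higher in Trem2 macrophages, with 197 CPM (190.1 to 204) in all other graft cells and a log2 ratio of 0.03 (-0.06 to 0.13). Its level was 688 CPM in granulocyte-like cells of the graft and 27.7 CPM in granulocyte-like cells of Co-Mac, so that the gap between graft and culture was also present in another cell class. The lowest was *Gusb*, with 239 CPM (227 to 251) against 201 (196 to 207) and 0.24 (0.16 to 0.33). *Smpd1* (1.59), *Gaa* (1.43), *Tpp1* (1.23), *Ppt1* (1.11) and *Asah1* (0.71) were the remaining genes called higher beside *Hexa* (1.09) and *Glb1* (1.44). For each of these genes, all other graft cells also lay above all Co-Mac cells. In CPM these were 18.1 and 7.47 for *Smpd1*, 41.2 and 9.88 for *Gaa*, 127 and 65.2 for *Tpp1* and 85.1 and 38.5 for *Ppt1*. For *Asah1* they were 109 and 98.9, for *Hexa* 257 and 173 and for *Glb1* 32.7 and 17.7. The gap was thus not limited to Trem2 macrophages, and tissue, growth factor and library cannot be told apart in it.

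All 3 lumenal proteins that are not enzymes were higher than in all other graft cells (10.8% of all genes tested). *Psap*, the precursor of the saposins that present lipids to hydrolases, had 6315 CPM (6254 to 6376) in Trem2 macrophages, 1722 (1702 to 1743) in all other graft cells, 2701 (2666 to 2737) in other lineage cells and 4882 (4854 to 4911) in untreated macrophage-like cells. The log2 ratios of 1.87 and 1.23 within the graft were the highest of all 35 members, while that to the cultured cells, 0.37 (0.35 to 0.39), was the lowest of the 3 genes and not called. *Npc2*, which hands cholesterol to NPC1, had 1341 CPM (1313 to 1369), 755 (742 to 768), 997 (976 to 1019) and 566 (556 to 576) in the same order. Its ratio was the lowest of the 3 against all other graft cells, 0.83 (0.79 to 0.87), and the highest against the cultured cells, 1.24 (1.21 to 1.28). *Grn*, the progranulin gene, had 1058 CPM (1033 to 1083), 516 (505 to 527), 827 (807 to 846) and 466 (457 to 475), with log2 ratios of 1.04 (0.99 to 1.08), 0.36 (0.31 to 0.40) and 1.18 (1.14 to 1.23).

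The transcription factors did not move together. *Mitf* had 57.6 CPM (51.9 to 63.8) in Trem2 macrophages, 29.7 (27.1 to 32.5) in all other graft cells, 26.2 (22.9 to 29.9) in other lineage cells and 73.9 (70.5 to 77.5) in untreated macrophage-like cells, and its log2 ratios were 0.96 (0.76 to 1.16), 1.14 (0.89 to 1.38) and -0.36 (-0.52 to -0.20). It was called higher within the graft and not against the cultured cells. *Tfec* had 54.7 CPM (49.2 to 60.7), 41.4 (38.3 to 44.6), 70.1 (64.6 to 76.0) and 101 (97.2 to 105), with log2 ratios of 0.40 (0.21 to 0.59), -0.36 (-0.55 to -0.17) and -0.89 (-1.05 to -0.73). *Tfeb* had 7.68 CPM (5.70 to 10.1), 10.4 (8.89 to 12.1), 8.07 (6.26 to 10.2) and 27.2 (25.1 to 29.4), with log2 ratios of -0.44 (-0.92 to 0.03), -0.07 (-0.63 to 0.48) and -1.83 (-2.27 to -1.41). *Tfeb* and *Tfec* were the 2 members called lower than in untreated macrophage-like cells, and with fewer than 10 CPM in both groups *Tfeb* was the member not tested against other lineage cells.

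Across 8 classes of graft cells, the Cd163 macrophages and not the Trem2 macrophages had the highest level for 19 of the 35 members, among them 10 of the 15 pump genes and 5 of the 10 hydrolases, though for 3 of the 19 (*Atp6v1f*, *Mcoln1* and *Asah1*) the interval overlapped that of the Trem2 macrophages. Trem2 macrophages were highest for 5: *Atp6v0e*, *Gusb*, *Man2b1*, *Npc2* and *Psap*. For 4 of these the interval lay above that of the next class, the exception being *Gusb*, with 239 CPM (227 to 251) against 229 (209.8 to 250) in Cd163 macrophages. Granulocyte-like cells were highest for 7 members, among them *Gla* and *Tfeb*, at 46.9 CPM (36.5 to 59.2) the highest level of *Tfeb* in any graft class. Monocyte-like cells were highest for 2 (*Atp6v1c1* and *Npc1*) and fibroblast-like cells for 2 (*Gaa* and *Mitf*). Among the genes highest in Cd163 macrophages were *Atp6v1a* and *Lamp1*, with 743 CPM (708 to 780.1) of *Atp6v1a* and 1825 CPM (1769 to 1882) of *Lamp1* against 529 and 1352 CPM in Trem2 macrophages. They had a median of 11690.5 UMIs. Of the 11114 genes that reach 10 CPM in any of the 8 classes, 11.7% were highest in Cd163 macrophages, 4.59% in Trem2 macrophages, 9.41% in granulocyte-like cells, 4.40% in monocyte-like cells and 13.3% in fibroblast-like cells. T/NK-like cells were highest for 23.8%, the 25 endothelial-like cells for 23.8% and DC-like cells for 8.97%, while no member was highest in these classes.

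**Figure D2:**
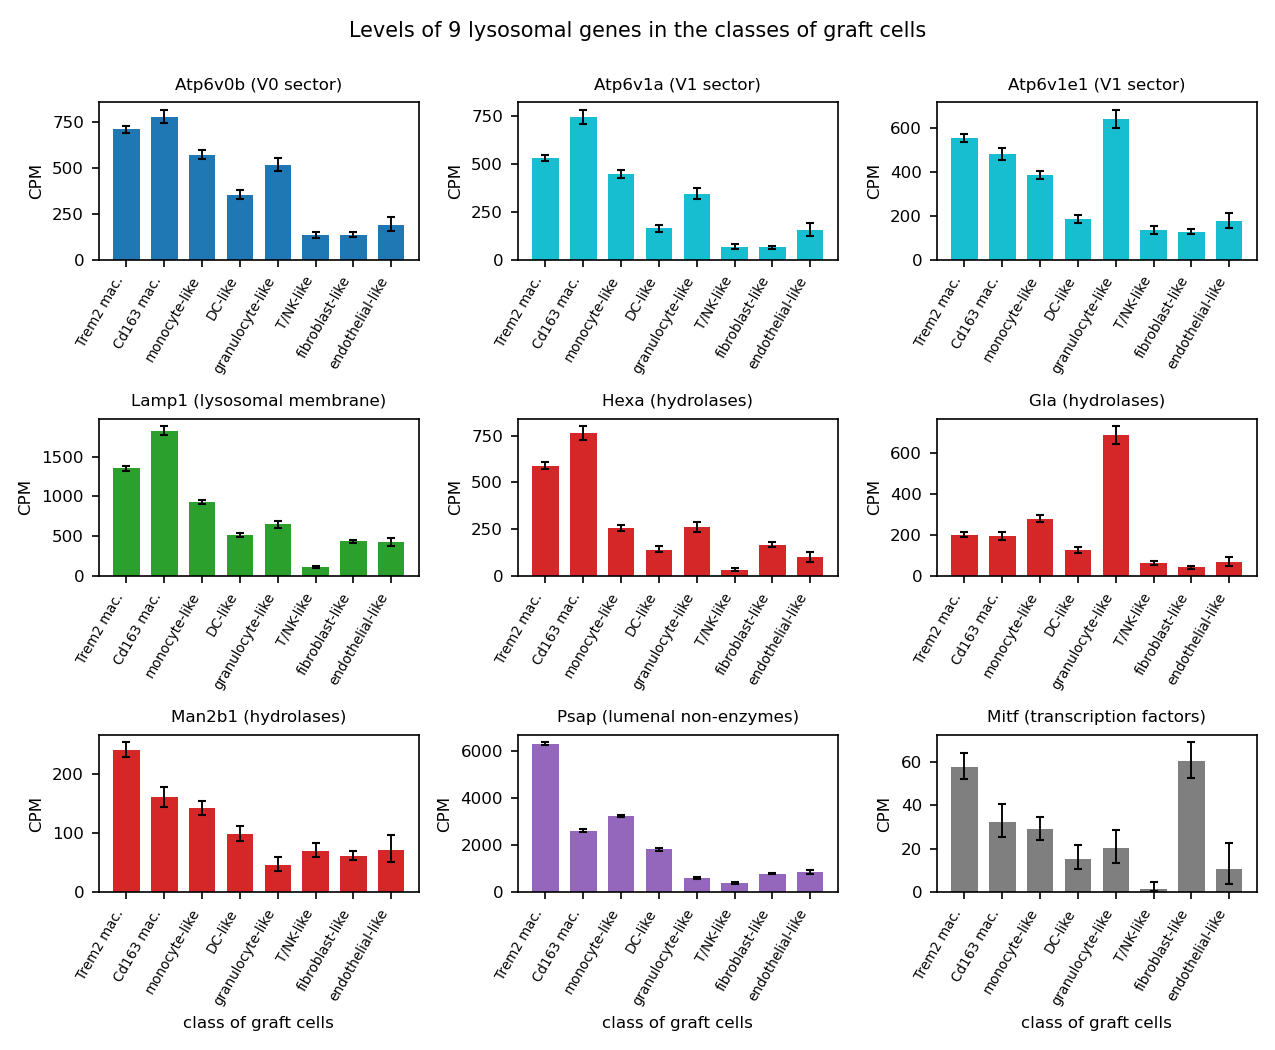
Level in CPM (y axis, from 0) of 9 of the genes in 8 classes of graft cells (x axis; mac., macrophages), with exact 95% Poisson intervals of counting error, 1 library. The genes were chosen for the picture after their values were seen; Psap and Man2b1 are highest in Trem2 macrophages, Atp6v0b, Atp6v1a, Lamp1 and Hexa in Cd163 macrophages, Atp6v1e1 and Gla in granulocyte-like cells, and Mitf in fibroblast-like cells (60.3 CPM, with Trem2 macrophages at 57.6).

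With VD3-treated macrophage-like cells as the reference in place of untreated ones, 18 of 35 members were higher in graft Trem2 macrophages and 1 was lower, where 28.5% of 7930 genes were higher and 29.9% lower. The median log2 ratio was 0.78 over the pump genes, 0.74 over the hydrolases and -0.04 over all genes. The medians of both lists were thus close to each other. *Lamp1* (0.19), *Lamp2* (0.38), *Mcoln1* (0.16), *Ppt1* (0.35), *Asah1* (0.25) and *Npc2* (0.51) were called higher against untreated and not against treated cells, while *Atp6v0d1* (0.63), *Atp6v1b2* (1.40) and *Psap* (0.81) were called higher against treated cells alone. *Tfec* changed sign from -0.89 to 0.24, *Mitf* from -0.36 to 0.07 and *Atp6v0a1* from -0.04 to 0.54.

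VD3 was compared with no treatment in all kept cells and in macrophage-like cells. Over all kept cells, 3 of 33 tested members were higher in VD-Mac and 4 were lower, where 6.01% of 7732 genes were higher and 12.7% lower, so the share of members lower was close to that of all genes. In macrophage-like cells 6 of 33 were higher and 3 lower, where 11.5% of 7558 genes were higher and 14.2% lower. In granulocyte-like cells 0 of 34 tested members were higher and 1 was lower, where 9.96% of 7621 genes were higher and 5.56% lower. The member lower was *Gla*, with 13.7 CPM (10.2 to 18.1) against 27.7 (23.0 to 33.1) and a log2 ratio of -1.01 (-1.52 to -0.53).

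Under VD3 in macrophage-like cells, the median log2 ratio was -0.32 over 15 pump genes, 0.37 over 10 hydrolases and -0.05 over all genes tested. The 3 genes above 0 among the 15 pump genes were *Atp6v0b* (-0.03 to 0.04), *Atp6v0c* (-0.19 to 0.99) and *Atp6v1f* (-0.02 to 0.07), all with intervals that span 0. Of the 10 hydrolases 8 lay above 0, among them *Hexa*, whose interval spans 0 too (-0.04 to 0.06). The quartiles over all genes tested were -0.36 and 0.26. Over all kept cells the medians were -0.17, 0.28 and -0.10, and in granulocyte-like cells 0.03, -0.11 and 0.16. The medians of both lists take in all their genes, while that of all genes takes in the genes tested alone. *Atp6v0c* was tested in none of these comparisons, and *Smpd1* in granulocyte-like cells alone. The difference between both lists, and between cell classes, was not tested.

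Scaling, cell filter and make-up changed the split over all kept cells. With the median of all genes at 0, 5 members were higher and 2 lower (8.16% and 9.58% of all genes). Without mitochondrial and ribosomal protein genes in the totals, 3 were higher and 2 lower there (7.85% and 10.1%), and 7 and 2 in macrophage-like cells (16.2% and 10.2%). With less than 5% mitochondrial UMIs per cell, 1 member was higher and 8 were lower over all kept cells (5.45% and 15.5%). With the cell classes of VD-Mac weighted to their shares in Co-Mac, 3 of 32 were higher, of which 1 was also higher without weights, and 6 were lower (9.14% and 10.1%). In macrophage-like cells, clustering at resolution 0.3 gave 2 higher and 6 lower (15.3% and 13.5%). The class then held 1185 cells of Co-Mac and 2543 of VD-Mac, in place of 1043 and 1128, so that these were not the same cells. Of the members reported as higher in these cells, 5 kept the call with 300 UMIs in place of genes as the filter. The same number kept it without cells over the 95th percentile of UMIs, and with wider macrophage or monocyte clusters.

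The cultures differed in make-up and depth. The median was 15804 UMIs per kept cell in Co-Mac and 12089 in VD-Mac, and 20354 and 14992 in macrophage-like cells. Mitochondrial genes took 5.66% of UMIs in Co-Mac and 6.23% in VD-Mac. In macrophage-like cells, 7 of 8 granulocyte markers were found in both libraries, *Retnlg* being at 0, with a sum of 459 CPM in Co-Mac and 1575 in VD-Mac (*S100a8* most abundant). The part of depth and of these markers in the results was not tested.

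**Figure D3:**
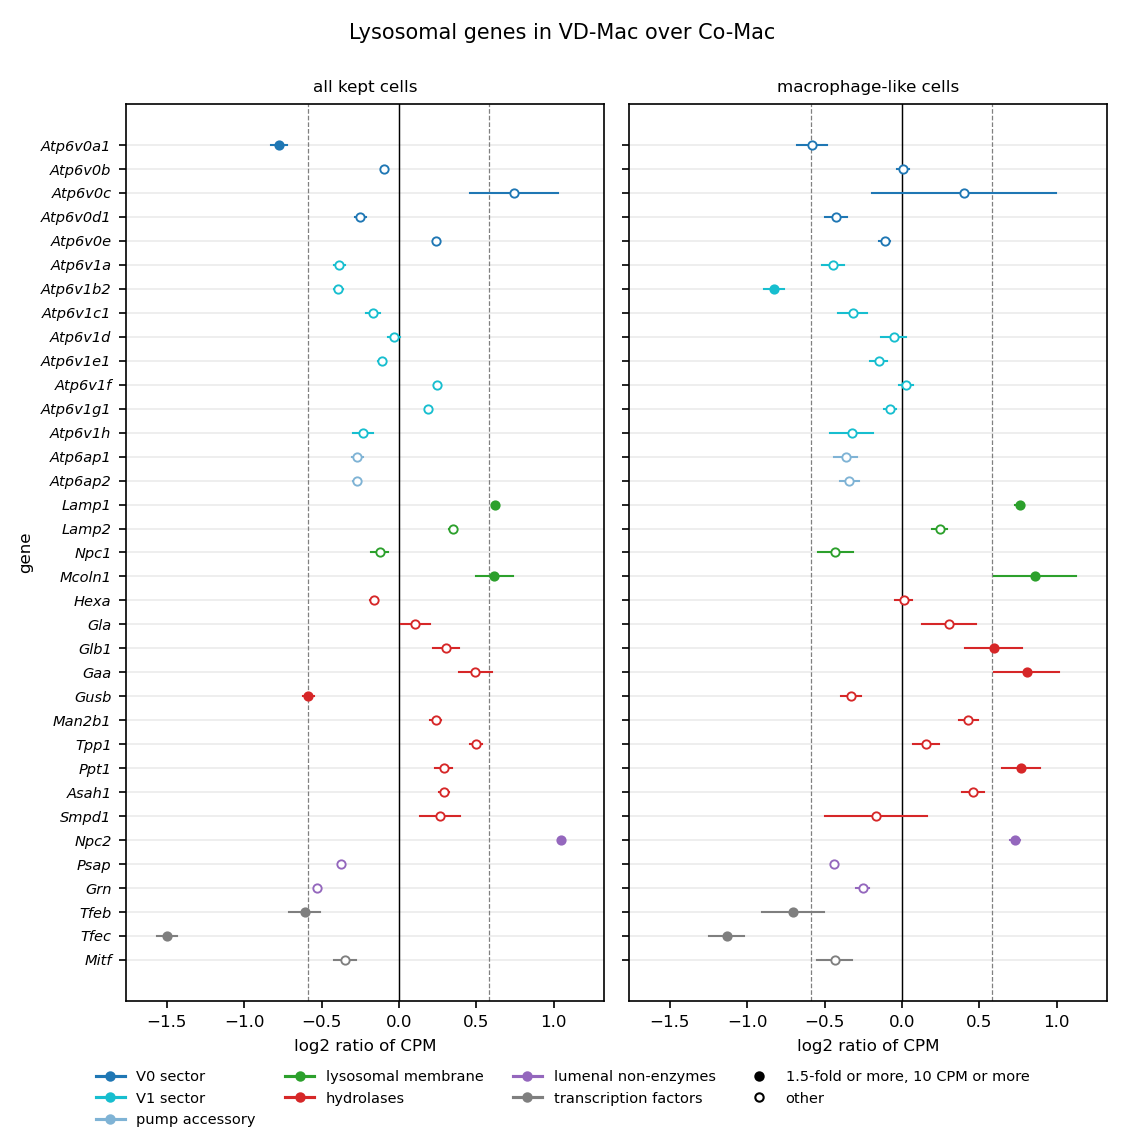
Log2 ratio of CPM (x axis) of each of the 35 genes (y axis) in VD-Mac over Co-Mac, in all kept cells and in macrophage-like cells, drawn with role colours, exact 95% intervals of counting error and lines at a ratio of 1.5 as in the plot of graft ratios. Npc2 (1.04) is farthest right and Tfec (-1.50) farthest left in all kept cells.

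Of the V0 genes, *Atp6v0a1* was lower in VD-Mac over all kept cells, with 42.7 CPM (41.5 to 43.9) against 73.0 (71.6 to 74.5) in Co-Mac and a log2 ratio of -0.78 (-0.83 to -0.73). In macrophage-like cells it was again the lowest of the sector, with 71.6 CPM (67.8 to 75.6) against 107 (103 to 111) and -0.58 (-0.68 to -0.48), but was not called. The highest was *Atp6v0c*, at 0.74 (0.46 to 1.03) over all kept cells and 0.40 (-0.19 to 0.99) in macrophage-like cells, though with fewer than 10 CPM throughout it was not among the genes tested. *Atp6v0b*, *Atp6v0d1* and *Atp6v0e* were not called in either.

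Of the V1 genes, none was called over all kept cells, where the ratios ran from -0.39 (-0.42 to -0.36) for *Atp6v1b2*, with 127 CPM (125 to 129) in VD-Mac and 167 (165 to 169) in Co-Mac, to 0.25 (0.23 to 0.26) for *Atp6v1f*, with 431 CPM (428 to 435) and 364 (361 to 367). In macrophage-like cells *Atp6v1b2* was lower, with 139 CPM (134 to 145) in VD-Mac, 247 (241 to 254) in Co-Mac and a log2 ratio of -0.83 (-0.89 to -0.76), while *Atp6v1f* was again the highest at 0.03 (-0.02 to 0.07). The remaining 6 lay between these and were not called. The accessory genes were not called: *Atp6ap1* had log2 ratios of -0.27 (-0.31 to -0.23) over all kept cells and -0.36 (-0.44 to -0.29) in macrophage-like cells, and *Atp6ap2* -0.27 (-0.30 to -0.24) and -0.34 (-0.40 to -0.28).

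Of the lysosomal membrane genes, *Lamp1* and *Mcoln1* were higher in VD-Mac. *Lamp1* had 874 CPM (868 to 879) in VD-Mac and 569 (565 to 573) in Co-Mac over all kept cells, and 1189 CPM (1173 to 1205) and 701 (690 to 712) in macrophage-like cells; the log2 ratios came to 0.62 (0.60 to 0.63) and 0.76 (0.73 to 0.79). *Mcoln1* had 11.1 CPM (10.5 to 11.8) and 7.26 (6.81 to 7.74) over all kept cells, and 15.5 CPM (13.8 to 17.4) and 8.57 (7.42 to 9.85) in macrophage-like cells; the log2 ratios came to 0.62 (0.50 to 0.74) and 0.86 (0.59 to 1.13). Over all kept cells both calls ended with a mean over cells (log2 ratios of 0.49 for *Lamp1* and 0.51 for *Mcoln1*), under 5% mitochondrial UMIs (0.53 and 0.44) and with weighted classes (0.45 and 0.33). In macrophage-like cells the call of *Lamp1* ended at resolution 0.3 (0.52). *Npc1* was lowest of the 4, at -0.12 (-0.18 to -0.07) and -0.43 (-0.54 to -0.32), and *Lamp2* reached 0.35 and 0.24; neither was called.

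No hydrolase was called higher over all kept cells, and *Gusb* was lower, with 92.1 CPM (90.4 to 93.9) in VD-Mac, 138 (136 to 140.3) in Co-Mac and a log2 ratio of -0.59 (-0.62 to -0.55). The highest was *Tpp1*, with 92.1 CPM (90.3 to 93.8) against 65.2 (63.8 to 66.6) and 0.50 (0.46 to 0.54). These calls depended on the scale: with the median of all genes at 0, *Tpp1* at 0.60 and *Gaa* at 0.59 were called higher and *Gusb* at -0.48 was not called. In macrophage-like cells 3 hydrolases were higher (11.5% of all genes tested). *Gaa* led with 24.3 CPM (22.1 to 26.6) against 13.9 (12.4 to 15.5) at a log2 ratio of 0.81 (0.60 to 1.02), followed by *Ppt1* with 70.2 CPM (66.5 to 74.1) against 41.2 (38.7 to 43.9) and 0.77 (0.65 to 0.89), and *Glb1* with 29.4 CPM (27.0 to 31.9) against 19.5 (17.7 to 21.4) and 0.59 (0.41 to 0.78). At resolution 0.3 all 3 calls ended, with *Gaa* at 0.41, *Ppt1* at 0.50 and *Glb1* at 0.36, and at resolution 0.8 those of *Ppt1* and *Glb1* ended. Both settings also changed which cells were compared, with 1185 of Co-Mac and 2543 of VD-Mac at 0.3 and 2057 and 2199 at 0.8. *Gusb* was lowest in macrophage-like cells, at -0.33 (-0.40 to -0.26), and not called. *Asah1* (0.46), *Man2b1* (0.43), *Gla* (0.30), *Tpp1* (0.16) and *Hexa* (0.01) lay above 0 without a call. *Smpd1*, with fewer than 10 CPM in both groups, was not tested in either comparison.

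Of the lumenal proteins, *Npc2* was higher and *Psap* and *Grn* lay below 0. *Npc2* had 1832 CPM (1824 to 1839.9) in VD-Mac and 888 (883 to 893) in Co-Mac over all kept cells, the highest ratio of all members at 1.04 (1.03 to 1.06). In macrophage-like cells it had 941 CPM (927 to 955) and 566 (556 to 576), a log2 ratio of 0.73 (0.70 to 0.77). *Psap* had 1819 and 2356 CPM over all kept cells and 3595 and 4882 CPM in macrophage-like cells; the log2 ratios came to -0.37 (-0.38 to -0.37) and -0.44 (-0.46 to -0.43). *Grn* was lowest over all kept cells, with 186 and 267 CPM, or -0.53 (-0.55 to -0.50) as a log2 ratio, and stood at -0.25 (-0.30 to -0.21) in macrophage-like cells. *Npc2*, whose product is the lumenal cholesterol carrier, and *Npc1*, which receives the cholesterol, thus had ratios of opposite sign in both. Over all kept cells, however, *Npc1* at -0.12 was close to the median of all genes tested, -0.10.

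All 3 transcription factors lay below 0 under VD3 over all kept cells and in macrophage-like cells. *Tfec* had 23.1 CPM (22.2 to 24.0) in VD-Mac and 65.3 (64.0 to 66.7) in Co-Mac over all kept cells, and 46.2 CPM (43.2 to 49.4) and 101 (97.2 to 105) in macrophage-like cells; the log2 ratios came to -1.50 (-1.56 to -1.44) and -1.13 (-1.25 to -1.02), the lowest of all members in both. *Tfeb* had 11.1 CPM (10.5 to 11.7) and 16.9 (16.2 to 17.6), and 16.7 CPM (14.9 to 18.7) and 27.2 (25.1 to 29.4), with -0.61 (-0.71 to -0.51) and -0.70 (-0.90 to -0.51). The call of *Tfeb* over all kept cells ended with the median of all genes at 0 (-0.51), with a mean over cells (-0.41), with weighted classes (-0.40), without mitochondrial and ribosomal protein genes in the totals (-0.52) and without cells over the 95th percentile of UMIs (-0.55). In macrophage-like cells its call ended without mitochondrial and ribosomal protein genes in the totals, where 2 members were lower. That setting moves all ratios alike, and *Tfeb* was nearest to the limit of the members called lower. *Mitf* was not called, with 24.3 and 30.9 CPM, and 54.8 and 73.9 CPM, and log2 ratios of -0.35 (-0.42 to -0.28) and -0.43 (-0.55 to -0.32). In granulocyte-like cells the 3 log2 ratios were -0.38 (-0.84 to 0.08) for *Tfeb*, -0.48 (-0.74 to -0.23) for *Tfec* and -0.54 (-0.93 to -0.15) for *Mitf*.

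The largest cluster of each culture had no name, and these were set side by side by number. Cluster 0 held 3300 VD-Mac cells and cluster 1 held 2606 Co-Mac cells, each nearly all of its own library, so that cluster and library cannot be told apart. Of 27 tested members 3 were higher in cluster 0 and 2 lower, where 7.18% of 6648 genes were higher and 6.72% lower. Higher were *Tpp1* at 1.41, *Npc2* at 0.81 (0.80 to 0.83) and *Lamp2* at 0.59 (0.54 to 0.64). *Npc2* had 2923 CPM (2907 to 2938) in cluster 0 and 1662 (1649 to 1674) in cluster 1. The 2 lower were *Gusb* at -0.83 (-0.92 to -0.73) and *Atp6v0a1* at -0.60 (-0.71 to -0.49). Unlike in macrophage-like cells, 13 of the 15 pump genes lay above 0 (all but *Atp6v0a1* and *Atp6ap2*), though the intervals of *Atp6v1a* and *Atp6v1h* spanned 0. The median was 0.27 over the pump genes, 0.42 over the hydrolases and 0.07 over all genes tested. The medians of both lists take in *Atp6v0c* (1.24), *Gaa* (0.83), *Smpd1* (0.74) and *Gla* (0.66), which were under 10 CPM and not tested. *Npc1* lay above 0 as well, at 0.53 (0.42 to 0.64). Of the transcription factors, all under 10 CPM there, *Mitf* was at 0.75 (0.52 to 0.99), *Tfeb* at 0.35 (0.09 to 0.61) and *Tfec* at -0.20 (-0.55 to 0.16), so that *Mitf* and *Tfeb* went the other way than in macrophage-like cells. Clusters 6 (VD-Mac) and 3 (Co-Mac, monocyte-like) both held dividing cells. Of 33 tested members 3 were higher and 3 lower, where 7.6% of 7935 genes were higher and 13.4% lower. *Npc2* at 0.87 (0.84 to 0.89), *Lamp1* at 0.79 (0.76 to 0.81) and *Mcoln1* at 0.74 (0.54 to 0.95) were higher in cluster 6, and *Tfec* at -1.38 (-1.48 to -1.28), *Atp6v0a1* at -0.77 (-0.86 to -0.69) and *Atp6v1b2* at -0.62 (-0.68 to -0.56) were lower.

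Lists of 95 further lysosomal genes were read beside the members, with log2 ratios in parentheses after their names; the companion genes given with levels were picked after their values were seen. The counts stand beside the shares of all genes: 10.8% higher and 27.8% lower against all other graft cells, 9.24% and 21.0% against other lineage cells, 25.2% and 29.4% against untreated macrophage-like cells, and under VD3 6.01% and 12.7% over all kept cells and 11.5% and 14.2% in macrophage-like cells. Among 10 other pump isoforms, 3 were tested in each graft comparison. *Atp6v0d2*, an isoform of the d subunit found in osteoclasts and macrophages, had 285 CPM (272 to 299) in Trem2 macrophages, 23.1 (20.8 to 25.6) in all other graft cells, 40.7 (36.5 to 45.2) in other lineage cells and 155 (149.5 to 159.7) in untreated macrophage-like cells. Higher were *Atp6v0d2* (3.63) and *Tcirg1* (1.30) against all other graft cells, *Atp6v0d2* (2.81) and *Tcirg1* (0.72) against other lineage cells and *Atp6v0d2* (0.88) against untreated macrophage-like cells, where *Atp6v0a2* (-1.35) was lower. The ubiquitous subunit *Atp6v0d1*, by contrast, was not called in any of the 3. None of the isoforms was called under VD3 in all kept cells or in macrophage-like cells. In granulocyte-like cells, however, *Atp6v0d2* was lower in VD-Mac, with 19.5 against 77.8 CPM and a log2 ratio between -2.39 and -1.62. The median was 2830.5 UMIs per such cell in Co-Mac and 2678 in VD-Mac. Whether RNA of macrophages or other cells added to these counts was not tested.

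Cathepsins, the main lysosomal proteases, and legumain were read next. Against all other graft cells 10 of 12 tested were higher, led by *Ctsl* (2.43), *Ctss* (2.22), *Ctsk* (2.01) and *Ctsd* (1.84), and *Ctsf* (-1.21) was lower. Against other lineage cells 5 of 11 were higher, led by *Ctsk* (3.97), *Ctsl* (1.89), *Ctsd* (1.84) and *Ctss* (1.34), and 0 were lower. Against untreated macrophage-like cells 9 of 11 were higher, led by *Ctsk* (6.72), *Ctsl* (4.55), *Lgmn* (3.98) and *Ctsb* (2.63), and 0 lower. *Ctsl* had 9885 CPM (9809 to 9962), 1829 (1808 to 1849.8), 2668 (2634 to 2703) and 421 (413 to 429) in Trem2 macrophages, all other graft cells, other lineage cells and untreated macrophage-like cells. Under VD3, 0 of 10 were higher and 2 lower in both comparisons, *Ctsc* (-1.33) and *Ctss* (-0.81) over all kept cells and *Ctsc* (-1.03) and *Ctss* (-0.94) in macrophage-like cells.

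Of 26 other hydrolases and activators, all tested in the graft comparisons, 16 were higher than in all other graft cells, among them *Acp5* (2.79), *Lipa* (1.96) and *Naglu* (1.43), and 0 lower. Against other lineage cells 9 were higher, among them *Acp5* (2.28), *Lipa* (1.70) and *Naglu* (1.48), and 1 was lower, *Naaa* (-0.93). Against untreated macrophage-like cells 18 were higher, led by *Hyal1* (3.89), *Acp5* (3.30), *Scpep1* (2.84) and *Sgsh* (2.65), and 3 were lower, *Naaa* (-2.39), *Lipa* (-1.54) and *Fuca1* (-0.61). *Lipa*, which splits cholesteryl esters, was thus higher than in graft neighbours and lower than in culture, with 184 CPM (174 to 195), 56.5 (51.5 to 61.8) in other lineage cells and 533 (524 to 543) in untreated macrophage-like cells. Under VD3, 2 of 21 tested were higher over all kept cells, *Scpep1* (0.64) and *Naglu* (0.61), and 6 lower, among them *Naaa* (-1.36), *Acp5* (-1.25) and *Lipa* (-1.22). In macrophage-like cells 5 of 22 were higher, led by *Naglu* (0.90), *Arsb* (0.78), *Scpep1* (0.73) and *Neu1* (0.66), and 7 lower, among them *Naaa* (-1.52), *Lipa* (-1.35) and *Acp5* (-1.20).

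Of 21 other membrane proteins of the lysosome, 7 of 17 tested were higher than in all other graft cells, led by *Cd68* (1.91), *Slc11a1* (1.46), *Tpcn2* (1.39) and *Cd63* (0.98), and 2 lower, *Laptm4b* (-1.10) and *Cln3* (-0.88). With other lineage cells as reference, 4 of 16 were higher, *Slc11a1* (1.31), *Cd68* (1.18), *Cd63* (1.09) and *Tpcn2* (0.88), and 2 lower, *Ctns* (-0.75) and *Slc38a9* (-0.74). With untreated macrophage-like cells as reference, 9 of 17 were higher, led by *Slc11a1* (1.89), *Cd68* (1.78), *Slc17a5* (1.24) and *Ctns* (0.98), and 1 lower, *Tpcn1* (-0.73). *Cd68*, a macrophage glycoprotein of late endosomes and lysosomes, had 718 CPM (697 to 739) in Trem2 macrophages and 191 (185 to 198) in all other graft cells. Under VD3, 2 of 14 were higher over all kept cells, *Scarb2* (1.23) and *Tpcn1* (0.94), and 1 lower, *Cd68* (-1.17). In macrophage-like cells 3 of 18 were higher, *Scarb2* (1.83), *Tpcn1* (1.20) and *Tmem175* (0.94), and 2 lower, *Cd63* (-1.12) and *Cd68* (-0.87). *Scarb2*, the receptor that carries glucocerebrosidase to the lysosome, had 220.2 CPM (214 to 227) in macrophage-like cells of VD-Mac and 62.0 (58.8 to 65.3) in those of Co-Mac.

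Genes that sort enzymes to the lysosome were fewer. Of 9, 3 of 7 tested were higher than in all other graft cells, *Gnptab* (1.38), *Nagpa* (0.88) and *Igf2r* (0.64), and 0 lower. Relative to other lineage cells, 2 of 8 were higher, *Igf2r* (2.16) and *Gnptab* (1.26), and 1 lower, *Gga3* (-0.83). Relative to untreated macrophage-like cells, 4 of 9 were higher, *Gnptab* (1.23), *Igf2r* (1.19), *Gnptg* (1.05) and *M6pr* (0.77), and 2 lower, *Sort1* (-1.78) and *Gga3*. *Igf2r*, a mannose 6-phosphate receptor that carries new enzymes, had 99.4 CPM (91.9 to 107) in Trem2 macrophages and 22.3 (19.2 to 25.7) in other lineage cells. Under VD3 it was the gene called lower over all kept cells, with 8.45 CPM (7.93 to 8.99) in VD-Mac and 16.9 (16.2 to 17.6) in Co-Mac, and 0 of 9 were higher. It was again the gene lower in macrophage-like cells, with 7.71 CPM (6.51 to 9.08) and 43.6 (41.0 to 46.4), and 1 of 9 was higher, *Gnptg* (0.77). In granulocyte-like cells, by contrast, *Igf2r* was called higher in VD-Mac, with 21.7 against 9.23 CPM and a log2 ratio of 1.23 (0.66 to 1.82). The part of RNA from other cells in these values was not tested.

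Of 18 genes of TFE3, of mTORC1, of the Rag GTPases and of their regulators, 4 of 15 tested were higher than in all other graft cells, *Lamtor4* (1.35), *Lamtor2* (0.87), *Lamtor1* (0.78) and *Lamtor5* (0.59), and 0 lower. Against other lineage cells 1 of 16 was higher, *Lamtor4* (1.04), and 2 lower, *Flcn* (-0.78) and *Mtor* (-0.59). Against untreated macrophage-like cells 4 of 16 were higher, *Flcn* (2.74), *Fnip2* (2.50), *Fnip1* (1.93) and *Rragc* (0.59), and 3 lower, *Mtor* (-1.12), *Lamtor5* (-0.97) and *Rraga* (-0.86), a share higher that is close to the 25.2% of all genes. *Flcn*, the folliculin gene, had 92.2 CPM (85.0 to 99.9) in Trem2 macrophages, 158 (149.9 to 167) in other lineage cells and 13.8 (12.4 to 15.4) in untreated macrophage-like cells. None of the 16 tested was called under VD3 in either comparison. Over this list the median log2 ratio was 0.13, -0.16 and -0.11 in the 3 graft comparisons, against 1.15, 0.55 and 1.72 over the cathepsins and legumain.

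Promoter sequences of RefSeq (GRCm38.p6) were found by symbol for 29 of the 35 members, and for 27025 genes in all; *Atp6v1b2*, *Atp6v1c1*, *Atp6v1g1*, *Atp6v1h*, *Npc1* and *Asah1* had none. The 250 bases before each start were searched for CACGTG, and for TCACGTGA, which contains it. Both read the same on either strand. CACGTG was found for 7 of the 29 (24.1%, exact binomial interval 10.3 to 43.5%) and for 6.86% of all genes, and TCACGTGA for 3 of the 29 (10.3%, 2.19 to 27.4%) and for 0.907% of all genes. The 7 were *Atp6v0b*, *Atp6v1a*, *Gaa*, *Gla*, *Glb1*, *Lamp1* and *Mcoln1*. Shown are those 3 members with TCACGTGA and *Lamp1*, which held the most copies of CACGTG (4), with CACGTG in capitals, 5′ to 3′ on the strand of the gene: *Gla* at chrX:134601154-134601255 (minus strand), *Mcoln1* at chr8:3500408-3500518 (plus strand), *Atp6v1a* at chr16:44139345-44139430 (minus strand) and *Lamp1* at chr8:13159060-13159160 (plus strand). A match describes the letters and is not a measured binding site.
Gla: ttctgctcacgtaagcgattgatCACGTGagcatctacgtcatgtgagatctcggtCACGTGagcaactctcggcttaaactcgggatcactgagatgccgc
Mcoln1: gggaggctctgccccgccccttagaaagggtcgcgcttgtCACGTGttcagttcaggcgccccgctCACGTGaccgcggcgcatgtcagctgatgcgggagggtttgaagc
Atp6v1a: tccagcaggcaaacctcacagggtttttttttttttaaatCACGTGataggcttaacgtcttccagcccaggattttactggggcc
Lamp1: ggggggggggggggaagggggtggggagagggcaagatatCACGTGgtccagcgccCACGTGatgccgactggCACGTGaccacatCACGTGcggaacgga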

How the data were processed

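The deposited values are raw UMI counts per gene and barcode, made by the authors with Cell Ranger and limited to barcodes it called as cells; no further filter or scaling had been applied. The counts were read for the 3 libraries with the filters given above. Graft and cultures were clustered apart in Seurat 5.3.0 (R 4.3.3, Matrix 1.6.5): log-normalised to 10000, 2000 variable genes without the members and companion genes, 15 principal components, 15 neighbours, resolution 0.5. Clusters were named from marker lists; the details of the naming rule were settled after clusters were seen. UMIs were then summed per group and computed in Python 3.11.15 (numpy 2.4.6, scipy 1.17.1, pandas 2.3.3), and drawn with matplotlib 3.10.9.

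Members and lists were chosen with earlier results of these data known. Named in full are, within each role and comparison, the members with the highest and the lowest ratio and all transcription factors; of each companion list up to 4 called genes per direction by size of ratio, apart from some called genes that are not reported here. Alternatives changed the scaling, thresholds, cell filters, clustering and reference cells. The submitters' notes name mm9 and the methods name a human build, while the gene IDs are mouse; no value here uses coordinates of the files, and promoter coordinates are those of RefSeq alone. Hashtag antibodies of hSTSG were left out, since no map from hashtags to mice is given.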

Additional observations from a re-analysis of the deposited data

Results flagged for a closer look

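The hSTSG library also holds 1195935 UMIs of hashtag antibodies, which no comparison used. It is named here because it is a signal in data outside the gene counts; the labels give no map from hashtags to mice, and no value per mouse was computed.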

How the results depend on the processing

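Counts of members, medians of pump and hydrolases and ratios of single members were recomputed with 1 choice changed at a time; 4 of the alternatives were chosen after seeing the data (2 with wider macrophage or monocyte clusters in culture, other lineage cells without the DC-like cluster, other graft cells without granulocyte-like cells). Of 134 counts of members under alternatives 98 were within 1.5 times the reported count and 36 were not. All 134 medians of pump and hydrolases moved by less than 0.58 on the log2 scale, though the pump median against other lineage cells ran from -0.31 to 0.22. Of 2345 values of single members 1417 were within their interval, 926 moved and 2 were counted as reversed. These were *Glb1* against other lineage cells, at -0.0325 with resolution 0.8, and *Tfec*, at 0.24 with VD3-treated cells as the reference. Both had a call in the reported comparison. Members without a call also changed sign and are not in that count. *Mitf*, for example, went from -0.36 to 0.07 with VD3-treated cells as the reference.

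The counts that moved follow, each with the share of all genes called that way in parentheses. With the median of all genes at 0 there were 11 higher (13.5%) against other lineage cells, and 5 higher (8.16%) and 2 lower (9.58%) in VD-Mac over all kept cells. Totals without mitochondrial and ribosomal protein genes gave 2 lower (10.1%) in VD-Mac over all kept cells. A mean over cells gave 3 lower (26.2%) against all other graft cells, and 1 higher (4.78%) and 2 lower (8.57%) in VD-Mac over all kept cells. At a ratio of 2 there were 6 higher (4.62%) against all other graft cells, 2 higher (4.01%) against other lineage cells and 1 lower (16.1%) against untreated macrophage-like cells; in VD-Mac 1 higher (2.16%) and 1 lower (4.63%) over all kept cells, and 0 higher (4.87%) and 1 lower (6.18%) in macrophage-like cells. The shares of all genes fell there too. At 50 CPM there were 1 lower (27.7%) against untreated macrophage-like cells and 3 higher (13.1%) in VD-Mac macrophage-like cells. Under 5% mitochondrial UMIs there were 1 higher (5.45%) and 8 lower (15.5%) in VD-Mac over all kept cells. Without cells over the 95th percentile of UMIs there were 9 higher (9.27%) against all other graft cells, 3 higher (9.15%) and 1 lower (21.6%) against other lineage cells, and 2 lower (11.8%) in VD-Mac over all kept cells. Resolution 0.3 gave 2 higher (15.3%) and 6 lower (13.5%) in VD-Mac macrophage-like cells, a class of 2543 cells there. Resolution 0.8 gave 10 higher (9.10%) against all other graft cells, and 3 higher (8.46%) and 1 lower (23.8%) against other lineage cells. Against other lineage cells, 10 principal components gave 1 lower (24.2%), and 30 gave 4 higher (9.36%) and 2 lower (20.2%). With lineage cells of at least 2 *Trem2* UMIs as the *Trem2* group there were 1 lower (25.3%) against all other graft cells and 13 higher (12.4%) against other lineage cells. Against cultures, VD3-treated cells as the reference gave 1 lower (29.9%) and all untreated cells 1 lower (33.5%). Without the DC-like cluster there were 4 higher (9.13%) and 2 lower (19.0%) against other lineage cells. In each case the cause was not tested.

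Not run were the 5% mitochondrial limit for VD3-treated macrophage-like cells and the removal of cells with 2 or more markers of other types from the Trem2 macrophages, of which 312 of 336 carried such markers, since fewer than 50 cells were left. No paired analysis was run: the labels give no replicate numbers, and the graft cells were not split by hashtag, of which the 10 named for mouse held 140 UMIs and the 10 named for human 1195795. Genes under 10 CPM in both groups were not called, which is a chosen limit and not one of depth.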
